A study of Rattus norvegicus with 18 samples.

Results

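This account concerns the genes by which heart muscle takes up and burns fatty acids, in untreated and treated rat heart grafts and in T cells. The list holds 38 genes, of which 37 had a probe set carrying that gene symbol alone, among 14217 genes named on the array. For each gene the probe set with the highest mean log2 signal over the 18 arrays was kept. Acaa1a, a peroxisomal thiolase, had no such probe set and has no value below. Hearts of Wistar Furth (WF) rats had been placed heterotopically, in the abdomen, into ACI rats, a fully allogeneic strain pair of adult males. One set of recipients had received cyclosporine (CsA), a calcineurin inhibitor, by mouth at 10 mg/kg on each of the days from 0 to 2, together with an allochimeric class I peptide at 1 mg/kg into the portal vein at transplantation. Another had received the same CsA course alone, a dose the submitters call sub-therapeutic, and the remaining recipients had received nothing. Heart grafts and T cells were each sampled on days 1, 3 and 7, with 1 array per tissue, treatment and day. The labels give all samples the strain Wistar Furth, so whether the T cells came from recipients, and from which organ, is not settled by them. They do not describe an injection without peptide in the CsA group, so the peptide and the portal injection cannot be told apart, and they do not say whether an array held RNA of 1 animal or of a pool.

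The adult heart draws most of its energy from long-chain fatty acids. Lipoprotein lipase releases them at the vessel wall, Cd36 and fatty acid transport proteins bring them into the cell, and acyl-CoA synthetases activate them. The carnitine shuttle moves the activated chains into mitochondria, where a spiral of dehydrogenases, hydratases and thiolases shortens them and the electron transfer flavoprotein passes their electrons to the respiratory chain. Many of these genes are targets of the nuclear receptor PPAR alpha with its partner RXR, which binds pairs of the half-site AGGTCA.

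Start-site sequences are shown for 5 of the genes, because the genes differed between days in the grafts and many genes of this kind are PPAR alpha targets. RefSeq's GRCr8 table held the 300 bases from 250 before to 50 after the start site for 32 of the 38 genes; Cpt1b, Acadl, Acaa2, Decr1, Ech1 and Lpl were not matched there. Capitals mark AGGTCA on either strand and the paired repeat, and the sequences run 5′ to 3′ along the strand of the gene. Acadvl (minus strand, chr10:55236656-55236955) holds the paired repeat. The window of Hadhb (minus strand, chr6:31907451-31907750) overlaps in part with that of Hadha, which holds no AGGTCA. Pdk4 (minus strand, chr4:34568280-34568579) and Hadh (minus strand, chr2:222504397-222504696) had the largest differences between days in the grafts, and Acsl5 (plus strand, chr1:264294601-264294900) ran the other way.
Acadvl: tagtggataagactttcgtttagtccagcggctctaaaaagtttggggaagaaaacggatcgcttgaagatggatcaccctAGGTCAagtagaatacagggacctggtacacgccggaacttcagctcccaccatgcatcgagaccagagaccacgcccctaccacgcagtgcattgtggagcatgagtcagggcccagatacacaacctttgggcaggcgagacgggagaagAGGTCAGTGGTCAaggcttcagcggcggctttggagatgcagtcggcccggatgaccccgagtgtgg
Hadhb: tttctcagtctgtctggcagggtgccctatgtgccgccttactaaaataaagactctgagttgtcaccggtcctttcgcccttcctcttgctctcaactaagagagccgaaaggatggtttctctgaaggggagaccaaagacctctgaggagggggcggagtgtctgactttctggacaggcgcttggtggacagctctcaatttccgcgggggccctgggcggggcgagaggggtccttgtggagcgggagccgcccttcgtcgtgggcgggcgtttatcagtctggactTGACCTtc
Pdk4: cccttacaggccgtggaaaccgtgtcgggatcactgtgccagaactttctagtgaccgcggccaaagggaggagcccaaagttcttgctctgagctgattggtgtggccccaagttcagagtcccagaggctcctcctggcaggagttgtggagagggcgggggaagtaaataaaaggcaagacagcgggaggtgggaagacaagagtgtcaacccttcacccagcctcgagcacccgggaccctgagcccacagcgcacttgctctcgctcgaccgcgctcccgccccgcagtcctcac
Hadh: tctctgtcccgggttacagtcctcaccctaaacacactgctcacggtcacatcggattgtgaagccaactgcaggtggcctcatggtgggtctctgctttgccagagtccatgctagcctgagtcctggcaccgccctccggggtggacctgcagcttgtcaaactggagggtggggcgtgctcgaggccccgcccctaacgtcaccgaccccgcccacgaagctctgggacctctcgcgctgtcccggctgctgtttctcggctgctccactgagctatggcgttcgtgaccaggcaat
Acsl5: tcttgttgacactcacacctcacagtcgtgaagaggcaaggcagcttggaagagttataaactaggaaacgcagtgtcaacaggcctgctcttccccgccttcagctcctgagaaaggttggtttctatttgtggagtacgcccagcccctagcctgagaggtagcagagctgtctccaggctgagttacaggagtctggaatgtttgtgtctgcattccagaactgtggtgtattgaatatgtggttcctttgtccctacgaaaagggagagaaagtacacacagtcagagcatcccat

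An exact AGGTCA on either strand lay in 7 of the 32 windows (21.9%), those of Acadvl, Echs1, Eci1, Eci2, Hadhb, Slc27a1 and Ucp3, against 5415 of 33469 windows of all genes (16.2%). A pair of AGGTCA copies spaced by 1 base, AGGTCANAGGTCA on either strand with at most 1 mismatch, lay in 1 of 32 (3.12%), that of Acadvl from position -17 to -5, where the start site is 1 and the base before it -1, against 147 of 33469 (0.439%). The first copy of that pair is also counted as a half-site. These matches are letters in a window and were set against no binding data. Hadha and Hadhb, which encode the subunits of the mitochondrial trifunctional protein, start head to head on chromosome 6, with 301 bases between their start sites. Acot2 and Acot1 start 24434 bases apart on chromosome 6, and Ucp3 and Ucp2 start 23463 bases apart on chromosome 1, each pair on 1 strand.

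The signals of contractile and T cell genes matched the tissue labels of the arrays. Summed signal over 23 cardiac contractile genes was 4116 to 5281 in the 9 T cell samples and 211416 to 278311 in the 9 grafts. Summed signal over 14 T cell genes was 60145 to 86310 in T cells, against 1967 to 4276 in grafts on days 1 and 3 and 23273 to 28799 in grafts on day 7. The T cell arrays also held signal of genes of other cell types. Summed macrophage signal was 37429 to 71767 in them and 35613 to 99963 in grafts, and summed B cell signal was 10307 to 32431 against 656 to 1840. The untreated day 1 T cell array stood apart, with a summed neutrophil signal of 45233 against 1519 to 4308 in the other 8 T cell arrays and a summed B cell signal of 32431 against 10307 to 21701. The untreated day 3 graft had a summed adipocyte signal of 25492 against 10646 to 18331 in the other 8 grafts. In bulk tissue, fewer cells of a type and less RNA per cell cannot be told apart.

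The first comparison asked how the genes changed in the grafts over the first week. In day 7 grafts 35 of the 37 genes were lower than on day 1, 2 were higher and none fell short of the threshold, an adjusted p below 0.05 in limma over 19737 probe sets. Over all probe sets tested, 33.8% were lower and 30.9% higher. The median log2 difference was -1.28 for the 37 genes, with a range from -2.90 to 0.96, and -0.02 for all probe sets. The difference had the same sign in all 3 treatments for 37 genes, and its median over the genes was -1.17 in CsA plus peptide, -1.25 in CsA and -1.33 in untreated grafts. The list was drawn up with an earlier result of this direction known.

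**Figure D1:**
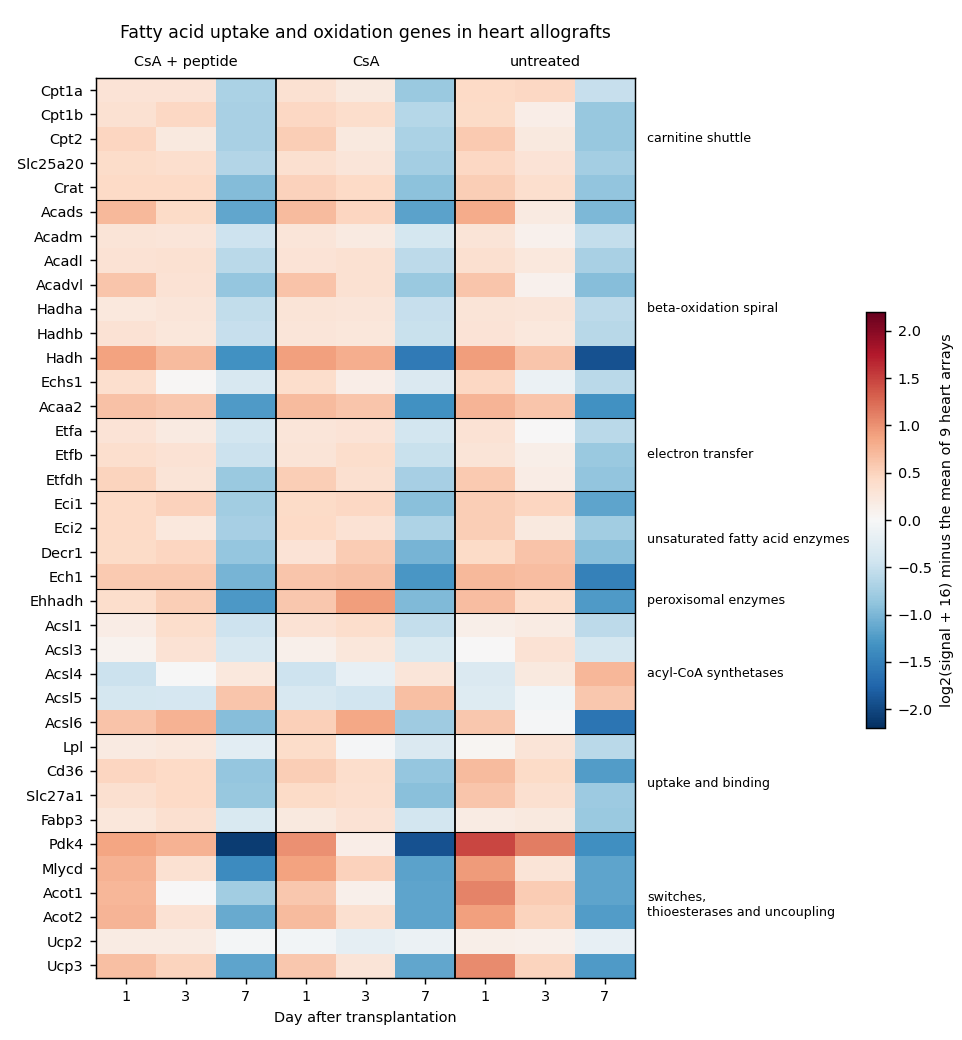
Log2(signal + 16) of each gene in each graft, minus the mean of that gene over the 9 grafts, in columns by treatment and day after transplantation and in rows by role. Day 7 columns are blue for 34 genes in all 3 treatments, near white for Ucp2, and red for Acsl4 and Acsl5.

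Among the genes of fuel choice, acyl disposal and uncoupling, all 6 were lower on day 7, with a median difference of -1.95. Pdk4, a kinase that inhibits pyruvate dehydrogenase and so spares glucose, had the largest difference of the 37. Its signal in CsA plus peptide, CsA and untreated grafts was 3314, 3625 and 5002 on day 1, 3074, 1998 and 3938 on day 3, and 409.6, 464 and 694 on day 7. Every day 7 graft lay below every earlier one, and on each day the untreated graft was the highest of the 3. The log2 difference of day 7 minus day 1 was -2.90 ± 0.14 (SE), a 7.49-fold lower signal (adjusted p = 2.95e-06). A further Pdk4 probe set gave -2.87.

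Mlycd, malonyl-CoA decarboxylase, removes the inhibitor of carnitine palmitoyltransferase 1. The signals of Mlycd were 2462, 2666 and 2779 on day 1, 1819, 2050.5 and 1755 on day 3, and 541, 625 and 632 on day 7, in the same order of treatments. Its 3 grafts of each day formed a separate step, and the day 7 minus day 1 difference was -2.11 ± 0.07 (adjusted p = 8.82e-07).

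Acot2, a mitochondrial acyl-CoA thioesterase, had signals of 5402, 5216 and 5980.2 on day 1, 3974, 4096 and 4515 on day 3, and 1469, 1419 and 1349 on day 7 in CsA plus peptide, CsA and untreated grafts. The difference was -1.96 ± 0.07 (adjusted p = 9.18e-07), and 2 further probe sets of the gene gave -1.99 and -1.78. Acot1, the cytosolic thioesterase encoded by the neighbouring gene, had weak signals of 277, 251 and 362 on day 1, 162, 177 and 246 on day 3, and 88.1, 63.3 and 63.0 on day 7 and a difference of -1.84 ± 0.17 (adjusted p = 4.71e-05). In both genes the untreated graft was highest on days 1 and 3, and no day 7 graft reached an earlier one. The transcripts are close paralogs, and cross-hybridisation between their probe sets was not tested.

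Ucp3, the muscle uncoupling protein, had signals of 1016, 962 and 1321 on day 1, 898, 778 and 901 on day 3, and 276, 279 and 259.7 on day 7 in CsA plus peptide, CsA and untreated grafts. The day 7 grafts lay within a narrow range far below the others, with a difference of -1.94 ± 0.11 (adjusted p = 4.27e-06), and a further probe set gave -2.75. Ucp2, the uncoupling protein of many cell types including leukocytes, ranged from 3519 to 4146 on day 1, 3192 to 4145 on day 3 and 3225 to 3545 on day 7. Its groups overlapped, and the difference was -0.20 ± 0.07 (adjusted p = 0.0326). Centred on contractile genes, the Ucp2 difference was 0.15 and did not pass.

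All 9 enzymes of the beta-oxidation spiral were lower on day 7, with a median difference of -0.95. Hadh, the hydroxyacyl-CoA dehydrogenase for medium and short chains, had signals of 10305, 10382 and 10571 on day 1, 9005, 9712 and 8535 on day 3, and 2205, 1873 and 1457 on day 7 in CsA plus peptide, CsA and untreated grafts. Most of the drop came between days 3 and 7, and the untreated graft was the lowest of day 7. Its difference was -2.51 ± 0.11, a 5.69-fold lower signal (adjusted p = 2.05e-06), and a further, dimmer probe set gave -1.85.

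Acaa2, the thiolase that closes the mitochondrial spiral, had signals of 7390.2, 7733 and 8025 on day 1, 7175, 7256 and 7229 on day 3, and 1991, 1886 and 1868 on day 7. The 3 treatments lay close together on each day, and the difference was -2.00 ± 0.05 (adjusted p = 8.43e-07). A dimmer probe set gave -0.90. Acads, the short-chain acyl-CoA dehydrogenase, had signals of 3871, 3797 and 4143 on day 1, 3168, 3271 and 2696 on day 3, and 1053, 1028 and 1182 on day 7 and a difference of -1.84 ± 0.09 (adjusted p = 3.15e-06). Here the untreated graft was highest on day 1, lowest on day 3 and again highest on day 7.

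The dehydrogenases for longer chains had smaller differences than Acads. Acadvl, which starts on very long chains, in the 3 treatments ranged from 6700.2 to 6777 on day 1, 4719 to 5579.7 on day 3 and 2294 to 2481 on day 7 (-1.48 ± 0.06). Acadl, for long chains, ranged from 14115 to 14628 on day 1, 13500.4 to 14437 on day 3 and 6985 to 7665 on day 7 (-0.95 ± 0.05). Acadm, for medium chains, ranged from 12592 to 12839 on day 1, 11174 to 12594 on day 3 and 7268 to 8024 on day 7 (-0.74 ± 0.05). The day 7 range lay below the ranges of days 1 and 3 in each of these genes, and the adjusted p was at most 1.18e-05.

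The trifunctional protein acts on long chains after the first dehydrogenation. Its alpha subunit Hadha had signals of 9768, 10129.5 and 10117 on day 1, 9965, 9934 and 9976 on day 3, and 5709, 5828 and 5567 on day 7 in CsA plus peptide, CsA and untreated grafts, and a difference of -0.81 ± 0.04 (adjusted p = 3.55e-06). The beta subunit Hadhb, whose start-site window overlaps in part with that of Hadha, ranged from 14212 to 14784 on day 1, 13886 to 14142 on day 3 and 7771 to 8388 on day 7. Its difference was -0.83 ± 0.04. The 2 subunits thus had differences within 0.03 of each other. A further, dimmer Hadha probe set had a difference of -0.11 that did not pass (adjusted p = 0.488), so the value for Hadha depends on its probe set. Echs1, the short-chain enoyl-CoA hydratase, ranged from 5885 to 6243 on day 1, 4163 to 5007 on day 3 and 3001 to 3622 on day 7 (-0.83 ± 0.08), its day 3 grafts lying between those of the other days.

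All 5 genes of the carnitine shuttle were lower on day 7, with a narrow spread of differences from -1.40 to -1.03 and a median of -1.13. Cpt1b, the muscle form of the outer-membrane palmitoyltransferase, ranged from 6245 to 6814 on day 1, 5479 to 6810.3 on day 3 and 2766 to 3211 on day 7 (-1.13 ± 0.07). Cpt1a, the liver form, which lymphocytes also use, ranged from 2347 to 2606 on day 1, 2209 to 2613 on day 3 and 1079.7 to 1335 on day 7 (-1.03 ± 0.05), and its other probe set gave -1.11. The within-array difference Cpt1a minus Cpt1b changed by 0.10 between the days (exact permutation test of 3 against 3 arrays, two-sided p = 0.8). The smallest p this test allows is 0.1, so it cannot show a shift of any size.

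Cpt2, the inner-membrane enzyme, ranged from 4989 to 5405 on day 1, 4165 to 4197 on day 3 and 2006 to 2214 on day 7 (-1.28 ± 0.06). The carrier Slc25a20, which exchanges acylcarnitine for carnitine, ranged from 2546 to 2734 on day 1, 2387 to 2554 on day 3 and 1169.6 to 1258 on day 7 (-1.12 ± 0.05). Crat, which buffers acetyl-CoA as acetylcarnitine, ranged from 4270.3 to 4639 on day 1, 4104 to 4314 on day 3 and 1634 to 1718 on day 7 and had the largest difference of the shuttle (-1.40 ± 0.05). The adjusted p was at most 8.22e-06 for the 5 genes.

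The electron transfer genes were lower too, all 3 of them, with a median of -0.92. Etfdh, the oxidoreductase that hands electrons to ubiquinone, ranged from 4578 to 4852 on day 1, 3657 to 4142 on day 3 and 1781 to 1965 on day 7 (-1.33 ± 0.06). The flavoprotein subunits Etfa and Etfb had smaller differences of -0.76 ± 0.07 and -0.92 ± 0.07. Their day 7 signals were 3652, 3665 and 3198 for Etfa and 4053, 4006 and 3195 for Etfb in CsA plus peptide, CsA and untreated grafts, lowest in the untreated graft in both genes.

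The 4 auxiliary enzymes that prepare unsaturated chains for the spiral were lower, with a median of -1.36. Ech1, a dienoyl-CoA isomerase, had signals of 10623, 10889 and 11712 on day 1, 10698, 11133 and 11420.3 on day 3, and 3517, 2935 and 2539 on day 7 in CsA plus peptide, CsA and untreated grafts. Grafts of days 1 and 3 lay close together and every day 7 graft was lower, by 1.89 ± 0.11 on the log2 scale (adjusted p = 4.77e-06). Eci1, the mitochondrial enoyl-CoA isomerase, ranged from 5954 to 6473 on day 1, 6141 to 6336 on day 3 and 1977 to 2622 on day 7 (-1.41 ± 0.09), and Eci2, its relative in mitochondria and peroxisomes, had a difference of -1.19 ± 0.05. Decr1, the dienoyl-CoA reductase, ranged from 6501 to 7058 on day 1, 7340.5 to 8211 on day 3 and 2600.2 to 2932 on day 7 (-1.30 ± 0.06).

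Ehhadh, the peroxisomal bifunctional enzyme, was the one peroxisomal gene measured and was dim in every graft. Its signals were 189, 219.6 and 234 on day 1, 212, 282 and 189 on day 3, and 49.0, 63.7 and 50.0 on day 7 in CsA plus peptide, CsA and untreated grafts. The difference was -1.72 ± 0.13 (adjusted p = 1.63e-05), with every day 7 graft below every earlier one.

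**Figure D2:**
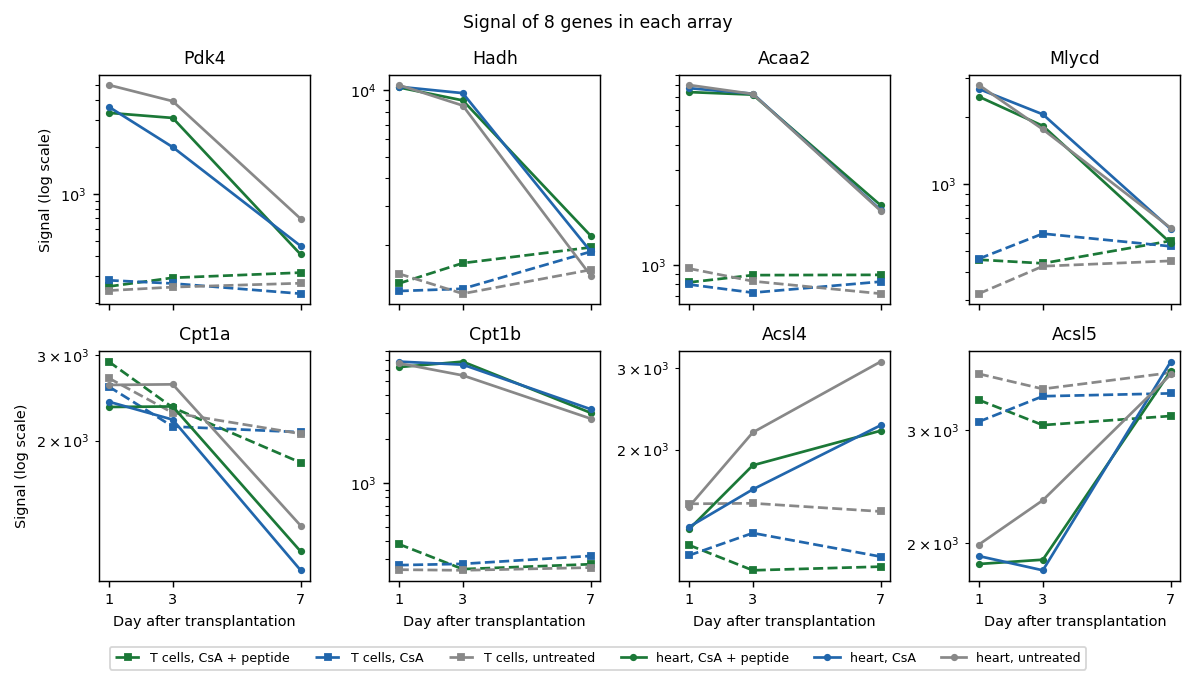
Signal on a log axis against day after transplantation for 8 genes in each array, with solid lines for grafts and dashed lines for T cells. Graft lines of Pdk4, Hadh, Acaa2 and Mlycd drop by day 7, those of Hadh and Mlycd into overlap with the T cell lines and those of Pdk4 and Acaa2 to levels above them, and graft lines of Acsl4 and Acsl5 climb.

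The acyl-CoA synthetases, which activate fatty acids for different uses, divided, with 3 lower and 2 higher on day 7. Acsl1, the main form of heart muscle, ranged from 6375 to 7249 on day 1, 6578 to 7661 on day 3 and 3889 to 4257 on day 7 (-0.72 ± 0.06), and its other tested probe set gave -0.81. Acsl4, which prefers arachidonic acid, had signals of 1343, 1359 and 1502 on day 1, 1849, 1639.8 and 2178 on day 3, and 2197, 2258 and 3101 on day 7 in CsA plus peptide, CsA and untreated grafts. It climbed in all 3 treatments, was highest in the untreated graft on each day, and differed by 0.82 ± 0.08 (adjusted p = 5.04e-05).

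Acsl5, a form of mitochondria and endoplasmic reticulum, had signals of 1855, 1909 and 1989 on day 1, 1884, 1814 and 2333 on day 3, and 3712, 3838 and 3665 on day 7. Its 3 day 7 grafts lay above all earlier grafts, with a difference of 0.96 ± 0.08 (adjusted p = 2.61e-05). A dimmer Acsl5 probe set had a difference of 0.03 that did not pass (adjusted p = 0.697), and with the median of both the difference was 0.49 and passed. Acsl3, a lipid droplet and endoplasmic reticulum form, ranged from 434 to 467 on day 1, 515 to 545 on day 3 and 328 to 341 on day 7 (-0.42 ± 0.07), and centred on contractile genes its difference was -0.07 and did not pass. Acsl6 was dim, ranged from 337 to 365 on day 1, 225 to 429 on day 3 and 64.8 to 127 on day 7, and had a difference of -1.69 ± 0.18.

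Pairs of related genes were also compared within each array. The within-array difference Acsl4 minus Acsl1 changed by 1.54 between days 7 and 1, and Acsl5 minus Acsl1 by 1.68. Ucp2 minus Ucp3 changed by 1.74 and Acot1 minus Acot2 by 0.12. In the exact two-sided permutation test of 3 against 3 arrays, the first 3 of these pairs reached p = 0.1, the smallest the design allows, and the thioesterase pair had p = 0.5. With 5 such pairs tested, none can pass a threshold of 0.05.

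All 4 genes of uptake and binding were lower on day 7, with a median of -1.03. Cd36, the long-chain fatty acid translocase, ranged from 7554 to 8779 on day 1, 7119 to 7375 on day 3 and 2314 to 3012 on day 7 (-1.54 ± 0.10). Slc27a1, fatty acid transport protein 1, ranged from 2355 to 2835 on day 1, 2371 to 2526 on day 3 and 974 to 1053 on day 7 (-1.31 ± 0.07). Fabp3, the cytosolic carrier of heart muscle, had day 7 signals of 11009, 10478 and 7863 in CsA plus peptide, CsA and untreated grafts, against 15776 to 17851 over the 6 grafts of days 1 and 3, and a day 7 minus day 1 difference of -0.74 ± 0.08. Lpl had the smallest difference of the 4, -0.60 ± 0.12 (adjusted p = 0.00298), and a difference of -0.25 that did not pass when arrays were centred on contractile genes.

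Several other measures moved over the same days. All 13 tested T cell genes were higher on day 7 than on day 1 (median 3.06), as were 14 of 15 macrophage genes (1.38), and all 11 endothelial genes were lower (-0.76). None of the T cell and macrophage genes was at 0 in any graft. Of 23 cardiac contractile genes 15 were lower and 1 higher (median -0.36), and their summed signal was 229622, 237679 and 211416 in day 7 grafts with CsA plus peptide, CsA and no treatment, against 270668 to 278311 in day 1 grafts. The 3′ to 5′ signal ratio of actin, a sign of RNA and cRNA quality, was 1.41 to 1.43 on day 7 and 1.84 to 2.44 on day 1, while that of Gapdh was 1.50 to 1.65 over the 9 grafts. Their part in the differences of the fatty acid genes was not tested. Centring each array on the mean of the contractile genes moved the median of all probe sets by 0.35, to 0.33. With it 34 of the 37 genes passed, 32 lower and 2 higher, where 14.4% of all probe sets were lower and 55.9% higher.

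Other genes of lipid and mitochondrial metabolism were described by lists beside the 37. Of 26 tested further genes of fatty acid oxidation, 24 were lower and 1 was higher (median -0.64), among them the peroxisomal CoA diphosphatase Nudt7 (-1.58 ± 0.05), Acad10 (-1.46 ± 0.08), the peroxisomal multifunctional enzyme Hsd17b4 (-1.25 ± 0.05) and Phyh (-1.12 ± 0.09), which starts the breakdown of phytanic acid. All 15 citrate cycle genes were lower (median -0.67), led by the succinyl-CoA ligase subunits Sucla2 (-0.84 ± 0.06) and Suclg1 (-0.80 ± 0.05). Of 29 respiratory chain genes 28 were lower (median -0.58), with Cox7a1, the muscle form of a cytochrome oxidase subunit, lowest at -1.74 ± 0.16.

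Of 20 tested further genes of fatty acid uptake and storage, 12 were lower and 5 higher on day 7 (median -0.42). The endothelial anchor of lipoprotein lipase, Gpihbp1, had a difference of -2.50 ± 0.09, the lipid droplet protein Plin5 of -2.00 ± 0.10 and the lipoprotein lipase inhibitor Angptl4 of -1.79 ± 0.09. The largest difference of that list was a rise in Slc27a2, a very long-chain acyl-CoA synthetase and transporter, of 3.74 ± 0.10. Of 18 tested regulators 9 were lower and 2 higher (median -0.24). The coactivator Ppargc1a (-1.09 ± 0.09), the receptor Rxrg (-0.97 ± 0.12) and the kinases Pdk2 (-1.36 ± 0.11) and Pdk1 (-0.93 ± 0.14) were among the lower ones. Ppara itself did not pass the filter on low signal, with 74.1, 92.2 and 81.4 on day 7 in CsA plus peptide, CsA and untreated grafts, against 133.7, 121.9 and 150.4 on day 1. No list was tested against another.

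**Figure D3:**
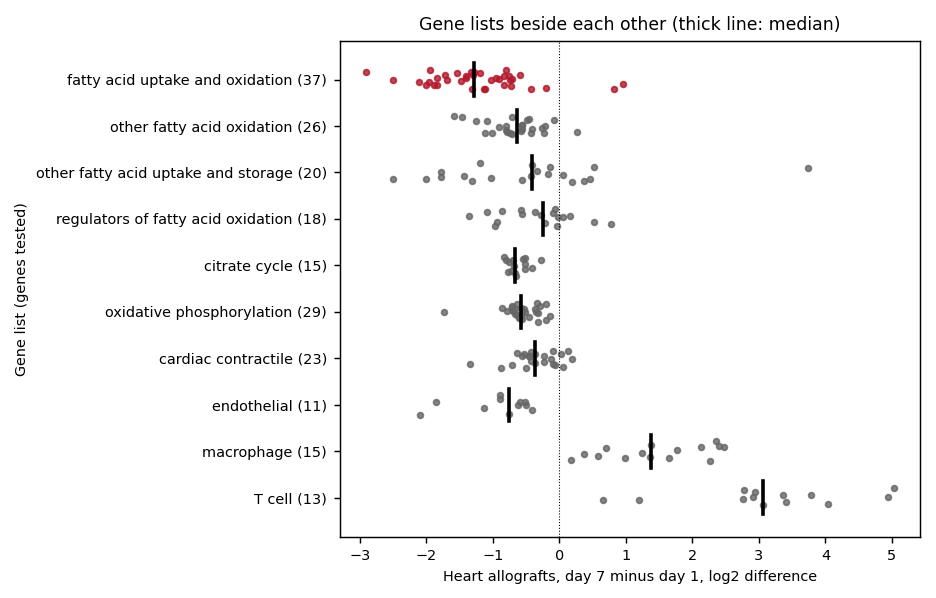
Log2 difference of day 7 minus day 1 in grafts for each tested gene, 1 row per list with the number of genes in brackets, and a thick line at the median. The 37 genes in red have a median of -1.28, against -0.64 for the further oxidation genes and -0.36 for contractile genes, while T cell and macrophage genes lie to the right of 0.

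The larger differences came after day 3. In day 7 grafts 34 of the 37 genes were lower and 2 higher than on day 3, with a median of -1.05, where 29.4% of all probe sets were lower and 26.9% higher. The gene that did not pass was Ucp2 (-0.15 ± 0.07, adjusted p = 0.104). In day 3 grafts 10 genes were lower and 2 higher than on day 1, 25 did not pass, and the median was -0.07, where 12.9% of all probe sets were lower and 14.6% higher.

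The early falls held the thioesterases Acot1 (-0.57 ± 0.17) and Acot2 (-0.40 ± 0.07), Mlycd (-0.49 ± 0.07) and Ucp3 (-0.34 ± 0.11), 4 of the 6 genes of fuel choice, acyl disposal and uncoupling. From the spiral came Echs1 (-0.39 ± 0.08), Acads (-0.37 ± 0.09) and Acadvl (-0.36 ± 0.06), and from the other roles Cpt2 (-0.32 ± 0.06), Etfdh (-0.27 ± 0.06) and Eci2 (-0.21 ± 0.05). Acsl4 (0.42 ± 0.08) and Acsl3 (0.23 ± 0.07) were the higher ones. Pdk4 had -0.44 ± 0.14 and did not pass (adjusted p = 0.0512). Fewer genes passed in fits that left arrays out. Whether this came from the treatment left out or from the smaller fit was not tested. The fit without the untreated arrays kept more genes than either fit without a treated group. Without the CsA arrays 5 genes passed the threshold, 1 higher and 4 lower, where 6.27% of all probe sets were higher and 4.21% lower. Without the CsA plus peptide arrays 4 passed, all lower, where 5.34% were higher and 3.02% lower. Without the untreated day 3 graft, which had the most adipocyte signal, 8 passed, 1 higher and 7 lower, where 8.33% were higher and 6.55% lower. Calls over all probe sets were thus also fewer in these fits of fewer arrays.

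The treatments were compared next, as the mean of the same-day differences over the 3 days. Differences of opposite sign on different days cancel in that mean and enter the residual, so such differences can be missed. None of the 37 genes passed in grafts with CsA plus peptide minus untreated, CsA minus untreated, CsA plus peptide minus CsA, or both treated groups minus untreated, and 0% of all 19737 probe sets passed in either direction of any of these in limma. At an unadjusted p below 0.05 there were 6, 7, 2 and 8 of the 37 genes, and 3156, 2288, 954 and 3213 of all probe sets, for these comparisons in that order. The median differences of the 37 genes lay between 0.01 and 0.03. In simulated data a difference of 0.5 in both treated groups minus untreated was found in 61.5% of cases and one of 1 in 92.8%, so small treatment differences could be missed.

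Pdk4 and Acsl6 had the largest mean differences. On each of the 3 days, Pdk4 signal was below that of the untreated graft with either treatment, on average by 0.56 ± 0.14 on the log2 scale in CsA plus peptide (adjusted p = 0.201) and 0.67 ± 0.14 in CsA (adjusted p = 0.19), neither past the threshold. Acsl6 had 399.7, 429 and 225 in CsA plus peptide, CsA and untreated grafts on day 3 and 113, 127 and 64.8 on day 7, with a mean difference of both treated groups minus untreated of 0.52 ± 0.15 (adjusted p = 0.189). Acsl4 had a mean difference of -0.32 ± 0.07 (adjusted p = 0.131), Cpt1a of -0.19 ± 0.05 (adjusted p = 0.161) and Etfb of 0.21 ± 0.06 (adjusted p = 0.179). Centred on contractile genes, Pdk4 (-0.76), Acsl4 (-0.47) and Cpt1a (-0.34) passed for both treated groups minus untreated, and Pdk4 (-0.81) for CsA minus untreated. This centring moved all probe sets alike, their median in both treated groups minus untreated by -0.15, and 8.08% of all probe sets were then lower and 0.182% higher in that comparison, and 0.294% lower and 0.0101% higher in CsA minus untreated.

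By single day, with 1 array against 1 array and no test, most of the 37 genes lay below the untreated graft on day 1 and above it on day 7. The median difference of CsA plus peptide minus untreated was -0.09 on day 1, 0.05 on day 3 and 0.10 on day 7, with 8, 24 and 29 genes above 0. For CsA minus untreated it was -0.06, 0.01 and 0.10, with 8, 21 and 29 genes above 0. Over all probe sets tested in grafts, the medians were -0.01, -0.024 and -0.016 for CsA plus peptide minus untreated. For CsA minus untreated they were 0.003, -0.001 and 0.001. Shares above 0 were not counted over all probe sets. The comparisons share the untreated grafts. On day 7 Hadh had 2205, 1873 and 1457 and Cd36 2995, 3012 and 2314 in CsA plus peptide, CsA and untreated grafts. The contractile genes lay the same way on that day, with a mean log2 of 13.05 and 13.11 in CsA plus peptide and CsA grafts against 12.86 in the untreated graft. They were also higher with treatment on day 3 (13.389 and 13.344 against 13.192). On day 1, when most of the 37 genes lay below the untreated graft, the contractile genes lay above it (13.397 and 13.364 against 13.325). Their part in the differences of the 37 genes was not tested.

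**Figure D4:**
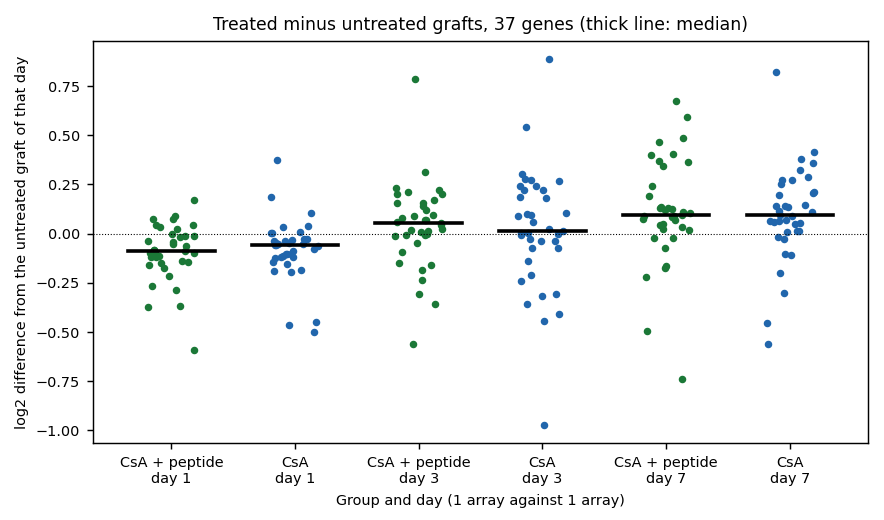
Log2 difference of each treated graft from the untreated graft of the same day, 1 point per gene for 37 genes, with a thick line at the median, by treatment and day. The medians run from -0.09 and -0.06 on day 1 to 0.10 in both treated grafts on day 7.

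In T cells 32 of the 37 genes passed the filter on low signal, while Ehhadh, Acsl6, Lpl, Fabp3 and Acot1 did not. None passed limma's test in any comparison of days or treatments in T cells. For day 7 minus day 1, 0.437% of 19464 probe sets were higher and 0.139% lower. For day 3 minus day 1, day 7 minus day 3 and the 3 treatment comparisons 0% passed in either direction. At an unadjusted p below 0.05 there were 1, 3 and 10 of the tested genes for day 3 minus day 1, day 7 minus day 3 and day 7 minus day 1, against 1615, 1050 and 4654 of all probe sets. For CsA plus peptide minus untreated, CsA minus untreated and CsA plus peptide minus CsA there were 7, 6 and 0 genes, against 4636, 2216 and 857 of all probe sets.

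The median day 7 minus day 1 difference in T cells was 0.12 over the 32 genes and 0.03 over all probe sets. Cpt1a came nearest to the threshold. It had 2912, 2586 and 2692 on day 1, 2340.5, 2138 and 2283 on day 3, and 1802, 2082 and 2066 on day 7 in T cells with CsA plus peptide, CsA and no treatment, a difference of -0.46 ± 0.09 (adjusted p = 0.0613). Every day 7 T cell sample lay below every day 1 sample, and with the median over both of its probe sets the difference was -0.44 and passed. Among treatments, Acsl4 had the lowest unadjusted p, with a CsA plus peptide minus untreated difference of -0.39 ± 0.08 (adjusted p = 0.116). Without the day 1 arrays, 3 genes passed for CsA plus peptide minus untreated, Echs1 (0.40), Hadh (0.39) and Acsl4 (-0.43), where 5.89% of all probe sets were higher and 7.25% lower. The day 1 arrays include the untreated one with the high neutrophil and B cell signal.

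T cells were also set against grafts over all 9 arrays each. Of the 32 genes past the filter on low signal in both tissues, 29 were lower in T cells than in grafts and 3 were higher, with a median of -1.75. Of the 16970 probe sets past the filter in both tissues 30.8% were lower and 49.7% higher, with a median of 0.18 (35.5% lower and 47.9% higher over all 22327 probe sets tested). The other 5 genes entered this test through the grafts alone, where they were brighter, and are not counted. Among them Fabp3 signals in T cells ran from 59.8 to 92.0, with a median of 73.6, against 7863 to 17851 in grafts with a median of 16200.2. Lpl in T cells ran from 24.8 to 105, with a median of 42.9, against 4126 to 8323 in grafts. The T cell signals of both genes lay below the filter, so no fold is given.

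Among the enzymes, the muscle form Cpt1b (-4.07 ± 0.15), Crat (-4.01 ± 0.23) and Acsl1 (-3.07 ± 0.13) had the largest differences. The spiral enzymes lay between -2.78 for Acadl and -1.43 for Hadha. A dimmer Hadha probe set was higher in T cells, by 0.88, so the direction of Hadha depends on its probe set. The higher genes were Acsl5 (0.47 ± 0.12, adjusted p = 0.00167), Ucp2 (0.33 ± 0.07, adjusted p = 5.31e-04) and Cpt1a (0.26 ± 0.10, adjusted p = 0.0212). Cpt1a in T cells ran from 1802 to 2912, with a median of 2283, and without day 7 its difference was 0.04 and did not pass. On days 1 and 3 the Cpt1a signals of T cells and grafts overlapped. Cpt1a did not pass without day 1 either, nor without the CsA or the CsA plus peptide arrays, nor with each treatment and day as a block, and Acsl5 did not pass without day 1 (0.30) or day 3 (0.34). The 3 directions were the same with quantile normalization over all arrays and with centring on array medians, which moved the median of all probe sets to 0.22 and 0.25.

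The difference between day 7 and day 1 was then compared between the tissues in a single fit. Of the 32 genes past the filter in both tissues it was higher in T cells than in grafts for 29 and lower for 2, and 1 did not pass, where 22.9% of the probe sets past the filter in both were higher and 25.8% lower (23.2% and 23.5% over all probe sets tested). Pdk4 (2.96 ± 0.19) and Hadh (2.90 ± 0.18) had the largest values, and Acsl5 (-0.93 ± 0.11) and Acsl4 (-0.89 ± 0.11) were the lower genes. Ucp2 (0.20 ± 0.16, adjusted p = 0.318) did not pass.

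On day 7 the 3 T cell and 3 graft signals overlapped for 5 of the 32 genes, Hadh, Ech1, Acsl5, Slc27a1 and Mlycd. Such overlaps were not counted over all probe sets, so neither this count nor those below have a background beside them. Mlycd was 554, 523 and 449.9 in day 7 T cells with CsA plus peptide, CsA and no treatment, against 541, 625 and 632 in day 7 grafts, and Slc27a1 was 1064, 1158 and 1053 against 1036, 974 and 1053. Hadh was 1955, 1869 and 1548 in T cells against 2205, 1873 and 1457 in grafts. All 3 grafts lay below the T cells for 4 genes, Cpt1a (1802 to 2082 in T cells against 1079.7 to 1335 in grafts), Ucp3 (341 to 454 against 259.7 to 279), Ucp2 and Acsl3. For the other 23 genes all 3 grafts lay above, as for Acadl (1812 to 2079 in T cells against 6985 to 7665 in grafts). Pdk4 stood at 229.6 to 313 in day 7 T cells against 409.6 to 694 in grafts by its brighter probe set, and at 55.7 to 78.3 against 1066 to 2108 by the other, whose T cell signal did not pass the filter.

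**Figure D5:**
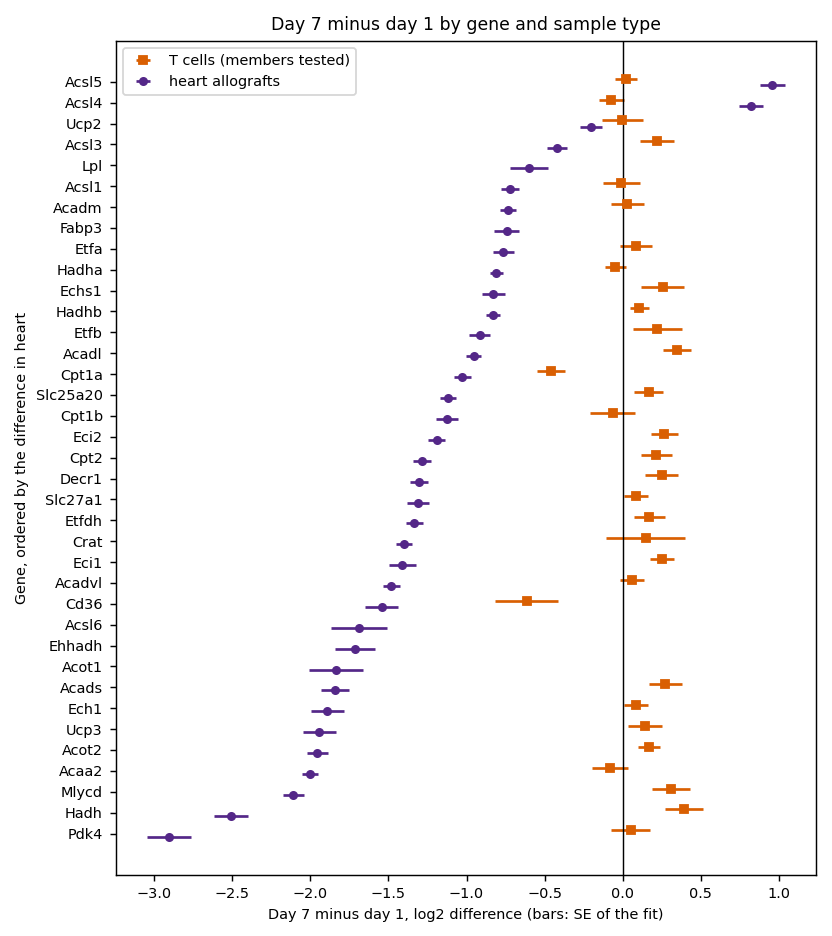
Log2 difference of day 7 minus day 1 with its SE from the limma fit, 1 row per gene, ordered by the graft value, with squares for the 32 genes tested in T cells and circles for 37 genes in grafts. Graft values run from -2.90 to 0.96, and T cell values lie near 0 with Cpt1a and Cd36 lowest.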

How the data were processed

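The deposited table holds an intensity on a linear scale for each of 31099 probe sets on 18 arrays. How the authors corrected and scaled the intensities, and with which software, is not given in the sources used here. Of all values 0.138% lay below 0 and were set to 0. Values entered every test as log2(intensity + 16), unscaled, a form that understates changes of dim genes. Control probe sets (57) were left out. Genes were named from the platform annotation, only where a probe set had 1 symbol. Probe sets entered a test if 3 or more of its arrays held them above the 40th percentile.

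The test was that of limma 3.58.1 (R 4.3.3), with an intensity trend and Benjamini-Hochberg adjustment over all probe sets tested. Within a tissue, treatment and day were additive factors over 9 arrays, with 4 residual degrees of freedom. No combination has a second array. The labels do not say that samples are separate animals, so a p-value reflects only how these samples vary, which may be technical variation. Within a tissue the residual also holds any treatment difference that changes from day to day, which raises the SE. The number of arrays limits the precision.

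The 37 genes, the lists and the tests were chosen with earlier results of these data known. Full values are given for the 10 genes with the largest day 7 minus day 1 difference in grafts, for the genes that rose and for genes whose probe sets disagree in sign, and up to 4 genes are named per other list. In data simulated for day 7 minus day 1 in grafts, differences of 0.5, 1 and 2 were found in 54.1%, 85.6% and 98.6% of cases. For T cells the shares were 27.3%, 77% and 95.9%, and for the difference between the tissues 15.1%, 61.9% and 94.7%.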

Additional observations from a re-analysis of the deposited data

Results flagged for a closer look

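The day 7 minus day 1 difference was not the same in T cells and grafts for 31 of the 32 genes past the filter on low signal in both tissues, in limma's test of the difference between the tissues. Of all 16970 probe sets past the filter in both, 22.9% were higher in T cells and 25.8% lower. The values, T cells minus grafts on the log2 scale, were 2.96 for Pdk4, 2.90 for Hadh, 2.42 for Mlycd, 2.12 for Acot2, 2.12 for Acads, 2.08 for Ucp3, 1.98 for Ech1 and 1.92 for Acaa2. The opposite sign was found for Acsl4 (-0.89) and Acsl5 (-0.93). Without the untreated day 1 T cell array, all 32 passed, where 21.5% of the probe sets past both filters were higher and 25.8% lower.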

How the results depend on the processing

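Day 7 minus day 1 in grafts had 34 to 37 genes past the threshold under every alternative run. Over all probe sets tested, 22.6% to 55.9% were higher and 14.4% to 37.8% lower in these runs. Centring on contractile genes left 34, turned Ucp2 to 0.15, and brought 1 gene past the threshold in CsA minus untreated and 3 in both treated groups minus untreated, all lower. In those treatment comparisons 0.294% and 8.08% of all probe sets were then lower. Ucp2 also missed the threshold with robust moderation, without the untreated arrays (-0.15) and without the CsA plus peptide arrays (-0.19). With the median over the probe sets of a gene, Hadha was 0.88 in T cells minus grafts and -0.0022 in the difference of day changes between tissues, and 1 gene, Cpt1a, passed in T cells for day 7 minus day 1. The pair Acot1 minus Acot2 changed by -0.0722 with a pseudocount of 1 and by 0.51 with one of 64. With each treatment left out in turn, day 3 minus day 1 in grafts had 4 to 9 genes past the threshold. Over all probe sets, 5.34% to 10.5% were higher and 3.02% to 7.92% lower in those fits. Of the 32 genes past the filter in both tissues, 26 to 29 were lower in T cells than in grafts with a day or treatment left out. Another 1 to 3 were higher, where 27.1% to 31.2% of the probe sets past both filters were lower and 44.8% to 49.5% higher. CsA plus peptide minus untreated in T cells had 0 to 3 genes past the threshold with a day left out, where 0% to 5.89% of all probe sets were higher and 0% to 7.25% lower. The cause of these shifts was not tested. Where arrays were left out, the fits also held fewer arrays. Each group has 1 array, and no replicate number links arrays. The T cell and graft arrays of a treatment and day do correspond, and treatment and day are factors in every fit. Each of the 9 treatment and day pairs was also taken as a block in T cells minus grafts, an alternative chosen after seeing the data. Of the 32 genes 29 were then lower and 2 higher, and Cpt1a no longer passed. Of the probe sets past both filters 29.5% were lower and 48.1% higher. Signals of Acot1, Ehhadh and Acsl6 were weak, and the labels name no batch.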
